A study of Mus musculus with 14 samples.

Results

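The genes described here encode plasma proteins of the complement and coagulation cascades that the liver secretes, together with the inhibitors of those cascades. A list of 40 gene symbols was matched to the symbols of the count table, and 39 were found, of 45706 genes in all. They comprised 21 coagulation and fibrinolysis genes, 16 complement genes and 2 genes (Serping1 and Vtn) that act in both cascades. The remaining listed gene, Klkb1, is not analysed here. All 39 passed the filter on low counts, and their lowest count in any library was 905.

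RNA of whole liver from male C57BL/6J mice was sequenced in 14 libraries. Mice entered at 8 weeks of age and ate standard chow (4 libraries, replicates 1 to 4) or a MASH diet, a model of metabolic dysfunction-associated steatohepatitis (inflamed and fibrotic fatty liver), for 16 weeks. The MASH group held 3 libraries (replicates 2, 3 and 4). For 6 more weeks on the MASH diet, the C18:1 group (4 libraries, replicates 1 to 4) received that monounsaturated fatty acid, and the C18:1-leucine group (3 libraries, replicates 1, 2 and 4) received the same fatty acid coupled to the amino acid leucine. The sources used here give no doses, the titles do not say whether the MASH mice received the vehicle, and no treatment period is tied to the MASH or chow libraries, so age at collection may differ between groups. The treatment tag of C18:1 replicate 1 named the diet alone and that of C18:1-leucine replicate 1 named C18:1, against their titles, which set the groups here. The labels do not say that libraries of a group came from separate mice, so p-values measure the spread between these libraries, which may be partly technical.

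Complement and coagulation are cascades of plasma proteases that circulate as inactive precursors, most of them made by hepatocytes. In complement, C1 and the mannose-binding lectins with their proteases cut C4 and C2 to form an enzyme that splits C3, after which the terminal components build a pore in the target membrane. In coagulation a chain of clotting factors ends in thrombin, which turns fibrinogen into fibrin, while antithrombin, heparin cofactor II and the protein C pathway hold thrombin back and plasmin dissolves the clot. Many of these genes depend on the hepatocyte transcription factors HNF1, HNF4 and C/EBP, and fibrinogen and several complement genes also respond to interleukin 6 in the acute phase response.

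Promoters of 4 members are shown because these genes mark the range of the results: C8b had the steepest fall on the MASH diet, Serpinc1 the lowest adjusted p among the coagulation members in that comparison, Fgb stands for the fibrinogen chains, which varied widely within groups, and C4bp had the highest fold change of the members in that comparison. Each is the 250 bases before the RefSeq transcription start in GRCm38.p6, written 5′ to 3′ on the strand of the gene, with capitals marking matches to the motifs listed after them.
C8b promoter: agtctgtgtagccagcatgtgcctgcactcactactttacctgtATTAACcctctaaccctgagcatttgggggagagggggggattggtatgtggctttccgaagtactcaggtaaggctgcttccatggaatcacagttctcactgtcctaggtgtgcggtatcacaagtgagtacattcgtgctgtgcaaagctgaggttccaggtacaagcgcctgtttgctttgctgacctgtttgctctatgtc
Serpinc1 promoter: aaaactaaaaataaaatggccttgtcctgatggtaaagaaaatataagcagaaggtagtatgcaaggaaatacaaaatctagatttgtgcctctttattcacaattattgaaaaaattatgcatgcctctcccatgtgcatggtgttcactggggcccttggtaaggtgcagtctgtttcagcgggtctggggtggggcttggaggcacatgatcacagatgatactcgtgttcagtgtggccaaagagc
Fgb promoter: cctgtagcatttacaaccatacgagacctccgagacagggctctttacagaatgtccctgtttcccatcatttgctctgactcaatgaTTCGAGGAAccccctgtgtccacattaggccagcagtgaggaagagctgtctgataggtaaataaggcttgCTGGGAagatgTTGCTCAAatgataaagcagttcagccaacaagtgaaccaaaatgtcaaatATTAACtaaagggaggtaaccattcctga
C4bp promoter: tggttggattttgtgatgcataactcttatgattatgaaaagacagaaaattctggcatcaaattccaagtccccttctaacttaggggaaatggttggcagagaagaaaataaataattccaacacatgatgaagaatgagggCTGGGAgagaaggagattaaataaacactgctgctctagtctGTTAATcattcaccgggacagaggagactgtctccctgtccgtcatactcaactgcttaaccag
The C8b window lies at chr4:104766067-104766316 on the plus strand, that of Serpinc1 at chr1:160978333-160978582 on the plus strand, that of Fgb at chr3:83049864-83050113 on the minus strand and that of C4bp at chr1:130661619-130661868 on the minus strand.

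The RefSeq table held promoters for 30 of the 39 members, and both strands were searched. The HNF1 element GTTAAT was found in 8 of the 30 (26.7%), against 6.52% of all 27025 promoters of the table searched over the same length. It was present in C1ra, C4bp, C8a, C8b, F13b, Fga, Fgb and Vtn, and reads as ATTAAC where it lies on the opposite strand, as in C8b and Fgb. The C/EBP motif TTNNGCAA was found in 8 (26.7%, against 9.55%), the STAT motif TTCNNNGAA in 6 (20%, against 7.18%) and the interleukin 6 response core CTGGGA in 12 (40%, against 26.8%). An HNF4 site (CAAAGTCCA or CAAAGGTCA) was found in 1 member promoter, that of F7, or 3.33% against 0.788%, and TATAAA in 1, that of Vtn, or 3.33% against 12.97%. Fga and Fgb each held matches to the HNF1, C/EBP, STAT and interleukin 6 motifs, and the Serpinc1 window held none of the 6. These are matches of letters in a window and were not tested as binding sites.

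Levels of the members spanned a wide range. Together they made up 2.90% to 4.89% of the counts of a library, and the fibrinogen chains alone made up 23.4% to 37.3% of the member counts. Levels are given below as CPM, the count of a gene scaled by the TMM-adjusted library size, and, to compare genes, as CPM per kilobase of annotated exon. On the per-kilobase scale in chow livers, Fgg (1821 ± 741, SD, n = 4), Fgb (1632 ± 586), C3 (1583 ± 374) and Fga (1403 ± 581) were the highest, with spreads that overlap, and Vtn (835 ± 158) and Plg (718 ± 75.5) followed. Lowest were Masp1 (7.80 ± 1.24), Pros1 (21.1 ± 1.04), F11 (22.3 ± 2.53) and C2 (32.4 ± 4.36). Pros1 and F11 lay within their spread of each other.

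**Figure D1:**
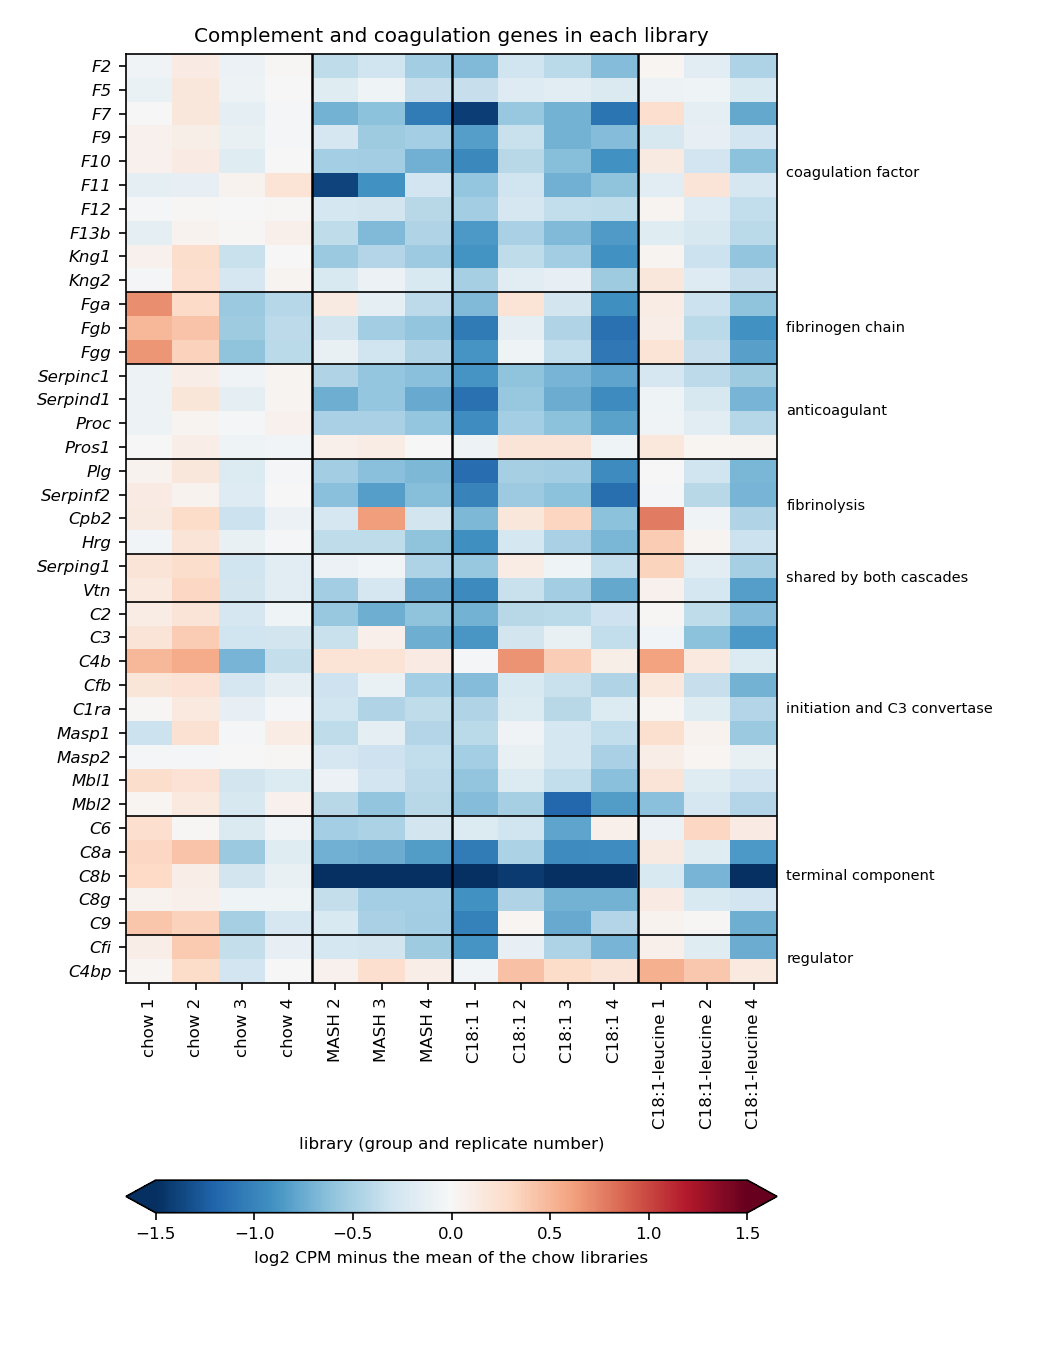
Colours give the log2 CPM of each of the 39 genes (vertical axis, ordered by role) in each of the 14 libraries (horizontal axis, by group and replicate number) minus the mean of the 4 chow libraries; the scale saturates at 1.5 in either direction. Blue (lower than chow) prevails in the MASH and C18:1 columns, C8b is the darkest row, and C18:1-leucine replicate 1 lies close to chow.

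The first comparison asks how the secreted cascades stood in livers on the MASH diet. By the test, 8 of 10 clotting factors, 3 of 4 anticoagulants, 2 of 4 fibrinolysis genes and the 3 C8 chains were lower than in chow livers, and no member was higher. Of the 39 members, 20 were lower (adjusted p under 0.05, edgeR quasi-likelihood test with Benjamini-Hochberg adjustment over 15674 genes), where 15.1% of all tested genes were lower and 20.4% were higher. The 20 were 13 of 21 coagulation genes and 7 of 16 complement genes. The median log2 fold change was −0.43 over the members (−0.50 for coagulation, −0.38 for complement), beside 0.01 for all tested genes. In 22 members every MASH library lay below every chow library, as in 17.8% of all tested genes.

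The same livers had a lower summed level of hepatocyte markers. In bulk tissue fewer hepatocytes, less RNA per hepatocyte and lower expression of the marker genes themselves cannot be told apart. The summed level of 11 hepatocyte markers, albumin among them, was 98868 to 124554 CPM in chow, 67141 to 76100 in MASH, 53943 to 67027 in C18:1 and 77690 to 102696 in C18:1-leucine livers, none of the 11 being at 0. In MASH against chow 8 of these 11 were lower, with a median log2 fold change of −0.61. Macrophage markers (10 genes) summed to 248 to 386 CPM in chow, 705 to 991 in MASH, 879 to 1162 in C18:1 and 499.6 to 548 in C18:1-leucine livers, with 7 of the 10 higher in MASH than in chow. Stellate cell markers (8 genes) summed to 103 to 141 CPM in chow, 284 to 655 in MASH, 329 to 938 in C18:1 and 265 to 386 in C18:1-leucine livers, with 6 of the 8 higher in MASH than in chow. The part of these cell types in the member results was not tested. Pancreatic transcripts stood at 197 CPM in chow replicate 2 and at 700.5 in C18:1-leucine replicate 2, against 3.73 to 7.66 in the other 12 libraries, and neutrophil transcripts at 61.2 CPM in C18:1-leucine replicate 1, against 3.35 to 25.5 elsewhere. Total counts ran from 33821900 to 51107200 per library.

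Among the clotting factors 8 of 10 were lower in MASH livers: F2, F7, F9, F10, F11, F12, F13b and Kng1. F7, the factor that joins tissue factor to start clotting, stood at 95.1, 107, 85.7 and 94.0 CPM in chow and at 58.0, 61.9 and 45.6 CPM in MASH livers. The groups did not overlap, and the log2 fold change was −0.79 ± 0.23 (SE; adjusted p = 0.0183, edgeR). F10, which makes thrombin from prothrombin and lies 1.498 kb from F7 on chromosome 8, was at 440.1, 459.9, 370.0 and 419 CPM in chow and at 296, 293 and 255 CPM in MASH livers (−0.59 ± 0.17). F11, of the intrinsic pathway, had 45.5, 45.5, 51.9 and 57.3 CPM in chow and 18.7, 26.3 and 40.7 in MASH livers (−0.81 ± 0.21, adjusted p = 0.0106). Its MASH libraries were scattered, and MASH replicate 2 was the lowest of all 14.

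F2, which encodes prothrombin, was lower by a smaller margin, at 1629, 1838, 1587 and 1704 CPM in chow and 1300.2, 1369 and 1178 CPM in MASH livers (−0.40 ± 0.13, adjusted p = 0.0305). F9, the factor missing in haemophilia B, fell by 0.43 ± 0.11 on the log2 scale, F12 (the contact factor) by 0.32 ± 0.10 and F13b, the carrier subunit of the fibrin-crosslinking factor, by 0.50 ± 0.11. Kng1, a kininogen of the contact system, fell by 0.53 ± 0.18, while its paralog Kng2 had −0.19 ± 0.15 and was not called. Reads shared between Kng1 and Kng2 may have been split, since both had fractional values in all 14 libraries. F5, the cofactor of factor X, had −0.20 ± 0.10 (adjusted p = 0.125).

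None of the fibrinogen chains was called, and their MASH and chow libraries overlapped. Fgb, the beta chain, stood at 8338, 7947, 4091 and 4503 CPM in chow and at 4885, 4134 and 3913 CPM in MASH livers, so that the chow libraries fell into a high pair (replicates 1 and 2) and a low pair (replicates 3 and 4). The log2 fold changes were −0.53 ± 0.32 for Fgb, −0.37 ± 0.33 for Fgg and −0.21 ± 0.32 for Fga. Their SD within groups was 0.46 to 0.48 on the log2 scale, against a median of 0.24 over the members and 0.17 over all tested genes. Cpb2 varied as widely (0.48), and C4b (0.42), C9 (0.41) and C8b (0.40) came next. The same split of the chow libraries was seen in C3, C4b, C8a, C9, Cfb, Cfi, Mbl1, Serping1 and Vtn, among other members. All members together, fibrinogen included, made up 4.76% and 4.89% of the counts in chow replicates 1 and 2. In chow replicates 3 and 4 they made up 3.12% and 3.35%. F11 and Masp2 went the other way, with lower levels in chow replicates 1 and 2. The 3 fibrinogen genes lie side by side on chromosome 3 (Fgg, Fga and Fgb). Acute phase transcripts (19 genes) also varied within groups, summing to 11387 to 22209 CPM in chow and 12946 to 36946 CPM in MASH livers, and in chow they were higher in replicates 1 and 2 (19220.0 and 22209 CPM) than in replicates 3 and 4 (11387 and 13251 CPM). In MASH livers the acute phase sum was highest in replicate 3 (36946 CPM) and Fgb in replicate 2 (4885 CPM). Among C18:1 livers these were again replicate 3 (30120 CPM) and replicate 2 (5343 CPM), while in C18:1-leucine livers both were highest in replicate 1. The part of the acute phase in the spread of fibrinogen was not tested.

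The anticoagulants fell along with the factors they restrain, except for protein S. Serpinc1, which encodes antithrombin, was at 1819, 2058, 1846 and 1975 CPM in chow and at 1401, 1289 and 1246 CPM in MASH livers. The groups lay well apart, and the log2 fold change was −0.55 ± 0.10 (adjusted p = 0.00136). Serpind1 (heparin cofactor II) fell by 0.69 ± 0.16 and Proc (protein C) by 0.52 ± 0.11 on the log2 scale. Pros1, the protein C cofactor, kept a level of 86.3 ± 4.26 CPM (SD, n = 4) in chow and 89.8 ± 3.65 CPM (n = 3) in MASH livers, a log2 fold change of 0.06 with a 95% interval of −0.12 to 0.23.

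Of the 4 fibrinolysis genes Plg and Serpinf2 were lower in MASH livers. Plg, the precursor of plasmin, was at 2748, 2982, 2309.7 and 2619 CPM in chow and at 1847, 1724 and 1657 CPM in MASH livers (−0.61 ± 0.18). Serpinf2, which encodes the plasmin inhibitor alpha-2-antiplasmin, fell by 0.70 ± 0.17 (adjusted p = 0.00678). Hrg, which binds plasminogen and heparin, had no overlap between the groups but missed the threshold (−0.46 ± 0.17, adjusted p = 0.0520). Cpb2, whose product protects fibrin from plasmin, had 306, 337, 224 and 263 CPM in chow and 234, 433 and 231 CPM in MASH livers, with MASH replicate 3 above every chow library (0.08 ± 0.33).

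In complement the steepest changes were those of the terminal components C8b and C8a. C8b, the beta chain of C8, stood at 519, 453, 351 and 391 CPM in chow livers and at 132, 92.3 and 121 CPM in MASH livers. Its highest MASH library lay far below its lowest chow library, and the level fell by 73.2% (log2 fold change −1.90 ± 0.29, adjusted p = 0.000395, edgeR). C8a, the alpha chain, whose gene lies 11.13 kb from C8b on chromosome 4 on the other strand, fell from 1193 ± 356 CPM (SD, n = 4) to 675 ± 28.8 CPM (n = 3), a log2 fold change of −0.82 ± 0.25. C8g, the gamma chain, had 383, 392, 355 and 354 CPM in chow and 289, 260.4 and 259.6 CPM in MASH livers (−0.46 ± 0.12, adjusted p = 0.00906).

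The C8 chains thus changed by unequal amounts. Per kilobase of exon the level of C8b was 0.532 ± 0.091 of that of C8a in chow livers (SD, n = 4), 0.244 ± 0.045 in MASH (n = 3), 0.264 ± 0.038 in C18:1 (n = 4) and 0.368 ± 0.038 in C18:1-leucine livers (n = 3). The lowest chow ratio was 0.419 and the highest ratio of the other 10 libraries was 0.406, so chow did not overlap with them. For C8g the ratio to C8a was 0.806 ± 0.224 in chow and 0.973 ± 0.046 in MASH livers, which overlap. C6 and C9, which join C8 in the pore, had log2 fold changes of −0.43 ± 0.17 and −0.46 ± 0.28 in MASH against chow and were not called.

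**Figure D2:**
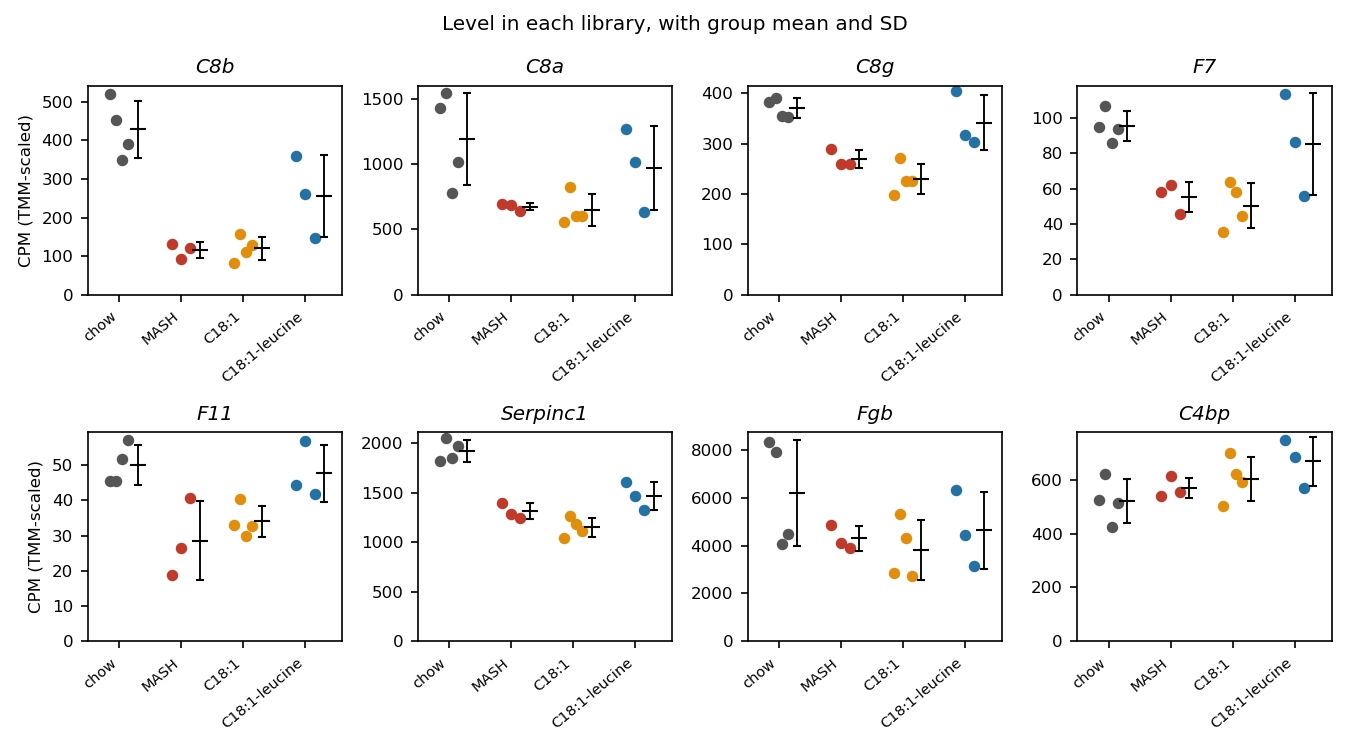
Points give the CPM (vertical axes, from 0) of 8 members in each library of the 4 groups (horizontal axes), with bars for the mean and SD of each group. C8a, C8b, C8g, F7, F11 and Serpinc1 show chow above MASH without overlap, Fgb shows the split chow group, and C4bp shows overlapping groups.

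Of the 9 genes that start complement or form the C3-splitting enzyme, 4 were lower in MASH livers. C2, the protease of that enzyme, fell from 126 ± 16.9 CPM (SD, n = 4) to 80.3 ± 4.52 CPM (n = 3), a log2 fold change of −0.65 ± 0.15 (adjusted p = 0.00507). Mbl2, a mannose-binding lectin, fell by 0.48 ± 0.15, C1ra, a protease of C1, by 0.38 ± 0.11 and Masp2, the lectin-bound protease that cuts C4 and C2, by 0.31 ± 0.09 on the log2 scale. Masp2 was even within chow, at 197, 196, 199.6 and 201 CPM, and stood at 167, 160.0 and 153 CPM in MASH livers.

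The abundant central components were not called. C3 stood at 9133, 10367, 6459.7 and 6609 CPM in chow and at 6316, 8388 and 4796 CPM in MASH livers, which overlap (−0.32 ± 0.26, 95% interval −0.88 to 0.23). C4b had 1995, 2088, 870.4 and 1108 CPM in chow and 1634, 1631 and 1543 CPM in MASH livers, with the chow libraries both above and below the MASH libraries (0.08 ± 0.29). Cfb, of the alternative pathway, had −0.31 ± 0.19, Masp1 −0.33 ± 0.17 and Mbl1 −0.27 ± 0.16. The regulators Cfi, which cuts activated C3 and C4, and C4bp, its cofactor, had −0.38 ± 0.22 and 0.13 ± 0.14. Of the genes that serve both cascades, Serping1 (the C1 inhibitor) had −0.20 ± 0.22 and Vtn (vitronectin) −0.52 ± 0.22 (adjusted p = 0.0799).

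Pros1, Cpb2, C4b and C4bp were the 4 members with a fold change above 0 in this comparison. Counts of some members may include reads of an overlapping or near-identical gene: C4b and C1ra have close paralogs, C2 and Cfb share exon bases with Gm20547 on the same strand, and Serpinc1, Masp2, Plg, F5 and Fgg overlap a gene on the other strand. The sources used here do not say whether counting used the strand. The call of 20 members rests in part on single libraries, since 10 members (C2, C8b, C8g, F9, F11, F13b, Proc, Serpinc1, Serpind1 and Serpinf2) were called with any 1 library left out. The count fell to 10 without MASH replicate 4, and it was 11 without both libraries rich in pancreatic transcripts.

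**Figure D3:**
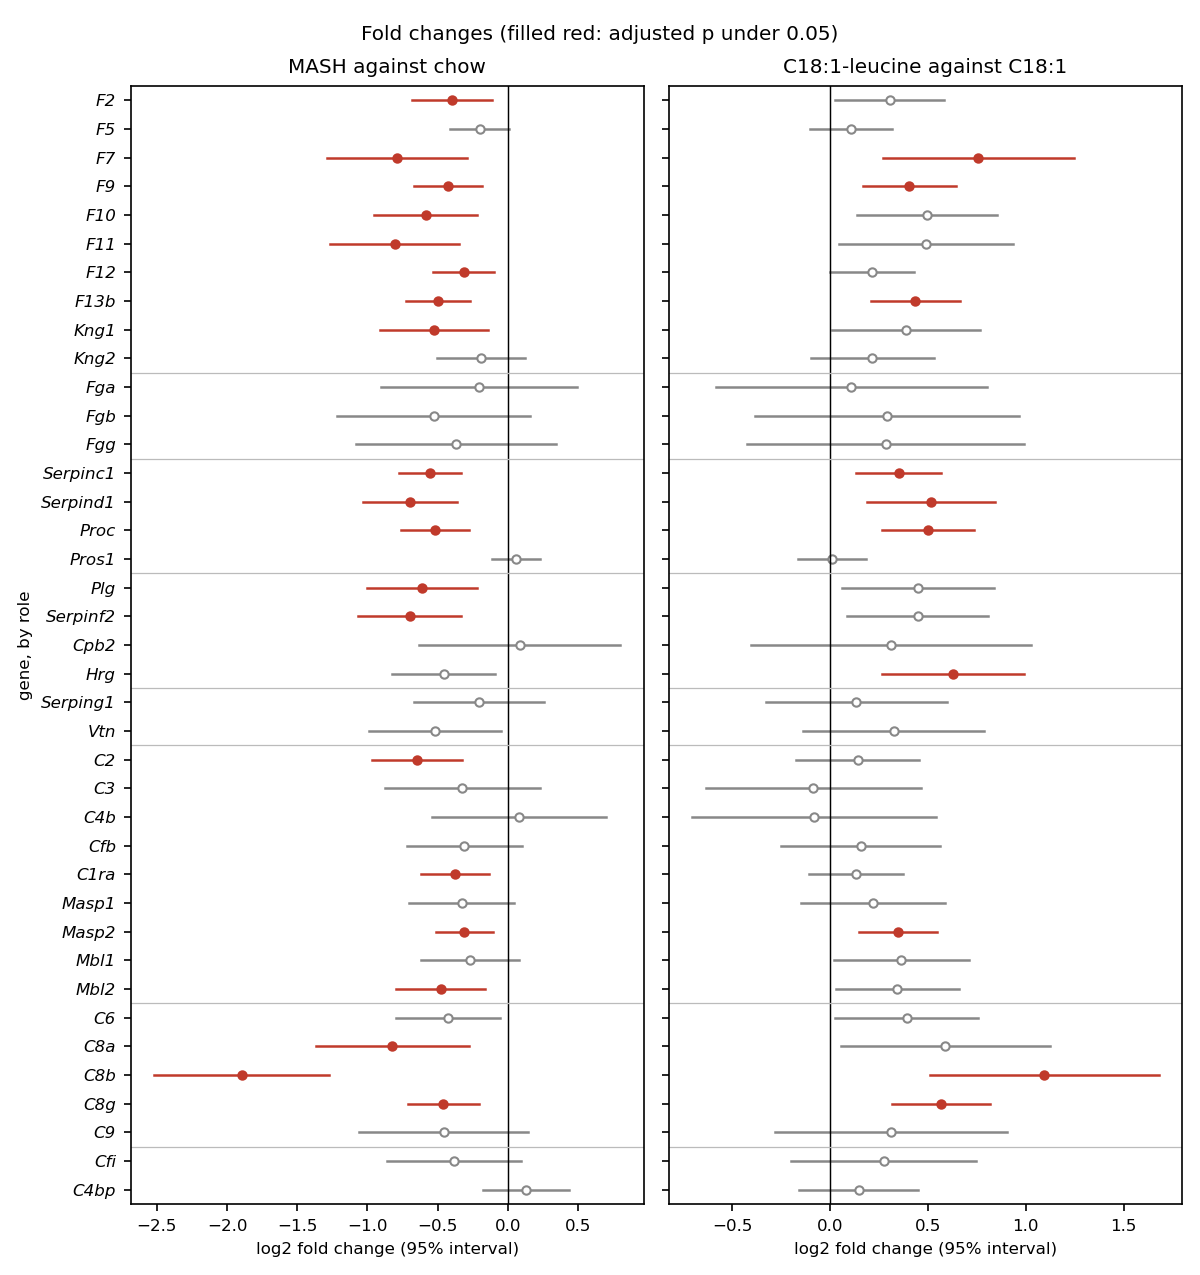
Points give the log2 fold change of each of the 39 genes (vertical axis, by role) in MASH against chow (left) and C18:1-leucine against C18:1 (right), with 95% intervals as lines and filled red points for an adjusted p under 0.05. On the left 20 points are filled, all below 0, and C8b is the farthest from 0; on the right 10 are filled, all above 0.

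Livers given the fatty acid alone on the MASH diet also had lower coagulation and complement genes than chow livers. In C18:1 against chow 25 of 39 members were lower and none higher (edgeR), where 24.9% of all tested genes were lower and 27.8% higher. They were 15 of 21 coagulation genes, 9 of 16 complement genes and Vtn, and the median log2 fold change of the members was −0.54, beside −0.01 for all tested genes. Serpinc1 had 1045, 1265, 1188 and 1109.7 CPM in C18:1 livers, below every chow library (−0.74 ± 0.09, adjusted p = 3.87e-05). Proc fell by 0.71 ± 0.10 and F13b by 0.71 ± 0.10 on the log2 scale.

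C8b again had the lowest level relative to chow, at 82.8, 156, 112 and 129 CPM (−1.84 ± 0.26, adjusted p = 0.000102). Mbl2 fell by 0.78 ± 0.14 and Hrg by 0.57 ± 0.16, and the fibrinogen chains had −0.71 ± 0.29 (Fgb), −0.64 ± 0.31 (Fgg) and −0.44 ± 0.30 (Fga) without passing the threshold. Of the 25 members, 19 were called with any 1 library left out, the others being F5, F11, Vtn, Cfi, C1ra and Mbl1. With groups read from the treatment tags 9 members were called, of which 8 were lower and 1, C4bp, was higher. The share of all tested genes called in that run is not given here. This comparison and the previous one share the chow libraries.

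Set against MASH livers directly, no member differed in C18:1 livers. The edgeR test called 0 of 39, none had an unadjusted p under 0.05 (6.18% of all tested genes did), limma voom and DESeq2 also called 0, and 0% of all tested genes were called lower or higher. Fold changes were below 0 in 30 of 39, with a median of −0.11. The 95% interval was −0.53 to 0.65 for C8b, −0.41 to 0.03 for Serpinc1 and −0.62 to 0.36 for F7, so changes of that size in either direction were not resolved.

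In C18:1-leucine livers 1 member was called below chow. Serpinc1 was at 1614, 1465 and 1326 CPM, below every chow library (−0.39 ± 0.10, adjusted p = 0.0245), and no member was higher; 4.34% of all tested genes were lower and 10.2% higher. The median log2 fold change from chow was −0.22 over the members and 0.01 over all tested genes, and 6 members had an unadjusted p under 0.05 in either direction, where 31.5% of all tested genes did. The call of Serpinc1 was lost without chow replicate 2, without C18:1-leucine replicate 2 and without C18:1-leucine replicate 4. C8b was at 360.4, 262 and 146 CPM, of which only replicate 1 reached the chow range (−0.74 ± 0.28, adjusted p = 0.0879).

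Against MASH livers no member of the C18:1-leucine group passed the edgeR test, although 37 of 39 fold changes were above 0, with a median of 0.21. Among all tested genes 0.0638% were lower and 0.00638% higher. Unadjusted p was under 0.05 for 9 members, each of them higher, where 8.02% of all tested genes were higher at that p. In 7 (F11, Proc, Hrg, C6, C8b, C8g and Masp2) every C18:1-leucine library lay above every MASH library, as in 10.3% of all tested genes. C8b had 1.16 ± 0.29 (95% interval 0.52 to 1.79, adjusted p = 0.0880) and F11 0.74 ± 0.22 (adjusted p = 0.123). DESeq2 called C8b (adjusted p = 0.00421), F11 (0.0343) and Masp2 (0.0362) higher, where it called 2.47% of all tested genes higher, and limma voom called none of the members.

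The last comparison sets the fatty acid with leucine against the fatty acid alone, both given for 6 weeks, and the sources used here do not say whether the doses matched. Members were higher with C18:1-leucine: 10 of 39 by the edgeR test and none lower, where 7.34% of all tested genes were higher and 8.89% lower. The median log2 fold change was 0.32 over the members (0.39 for coagulation and 0.29 for complement), beside −0.02 for all tested genes, and 37 of 39 were above 0. The 10 were F7, F9, F13b, Serpinc1, Serpind1, Proc and Hrg of coagulation, and C8b, C8g and Masp2 of complement.

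C8g was at 404, 317 and 303 CPM in C18:1-leucine livers and at 198, 271, 227 and 226 CPM in C18:1 livers. The groups did not overlap, and the log2 fold change was 0.57 ± 0.12 (adjusted p = 0.00872). Proc stood at 446 ± 57.0 CPM (SD, n = 3) against 315 ± 41.0 CPM (n = 4), again without overlap (0.50 ± 0.11, adjusted p = 0.0108). C8b rose by 1.09 ± 0.27 (adjusted p = 0.0185), but its C18:1-leucine replicate 4 lay below C18:1 replicate 2. F7 was at 113, 86.7 and 55.7 CPM against 35.5, 64.0, 58.0 and 44.3 CPM (0.76 ± 0.23, adjusted p = 0.0382), also with overlap.

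Members that did not pass had intervals of differing width. For Pros1 the 95% interval was −0.16 to 0.18 and for F5 −0.10 to 0.32, whereas for Fga it was −0.58 to 0.80 and for C3 −0.63 to 0.46. C3 and C4b were the 2 members with a fold change below 0 (−0.09 ± 0.26 and −0.08 ± 0.29). Marker sums moved as well: hepatocyte markers were higher in 5 of 11, erythroid markers higher in 5 of 5 and macrophage markers lower in 5 of 10 in the same comparison, and their part in the member results was not tested. Erythroid markers summed to 355 to 675 CPM in C18:1-leucine and 159 to 412 CPM in C18:1 livers.

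This count of 10 changed with the libraries left out, with the labels used and with the groups fitted together. Fitting the compared groups alone, with all their libraries and titles kept, lost 9 of the 10. Runs with fewer libraries or groups also lose power, so the part of the labels was not settled. In C18:1-leucine livers replicate 1, whose tag names C18:1, lay nearest to chow, with a member median 0.06 above the chow mean on the log2 scale, and replicates 2 and 4 lay at −0.19 and −0.49. In the C18:1 group replicate 1, whose tag names the diet alone, was the lowest at −0.83, and the others lay at −0.27, −0.47 and −0.65. Without both of these libraries 0 members were called, and with groups from the tags 0 were called. Leaving out 1 library at a time gave 1 to 16 calls: 2 without C18:1 replicate 1, 3 without C18:1 replicate 4, 2 without C18:1-leucine replicate 1, 1 without C18:1-leucine replicate 2 and 16 without C18:1-leucine replicate 4. The shares of all tested genes called in these runs are not given here. C8g was the 1 member called with any library left out, and without both libraries of disagreeing labels it had 0.36 (adjusted p = 0.0757, edgeR).

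**Figure D4:**
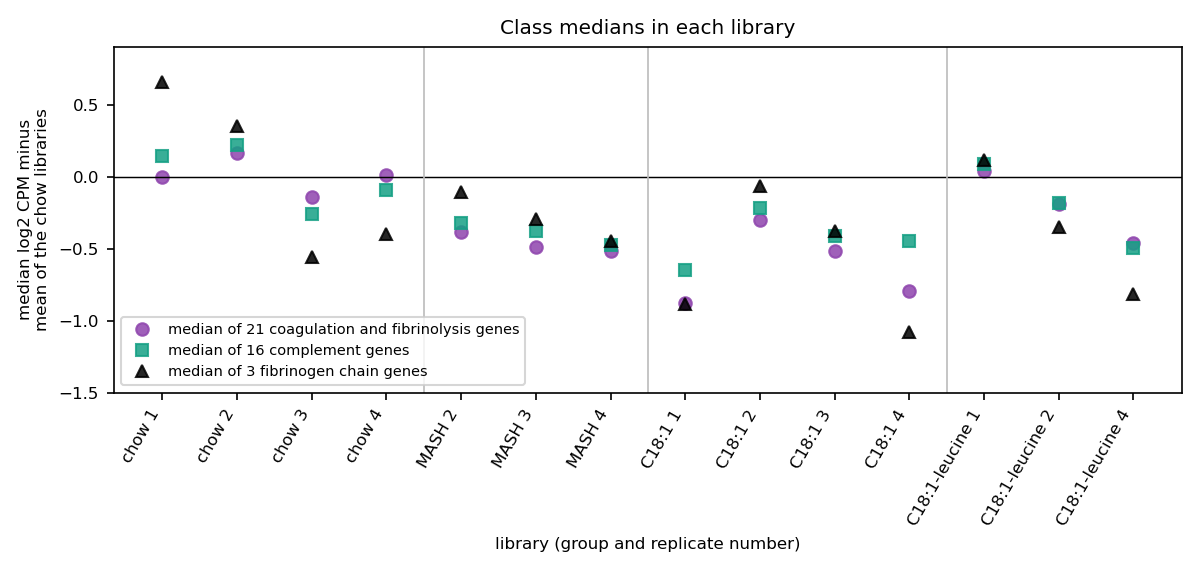
Each point is the median, over 21 coagulation genes (circles), 16 complement genes (squares) or 3 fibrinogen chain genes (triangles), of log2 CPM minus the mean of the chow libraries (vertical axis), for each library (horizontal axis, by group and replicate number). Coagulation and complement medians lie between −0.88 and −0.22 in the MASH and C18:1 libraries and between −0.50 and 0.09 in the C18:1-leucine libraries, and the fibrinogen median ranges from −0.56 to 0.66 within chow alone.

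Other genes of the same pathways, from lists drawn up by function, moved in both directions in MASH against chow. Among all tested genes 15.1% were lower and 20.4% higher in that comparison, and the counts of lower genes below were near that lower share. Of 30 other coagulation and fibrinolysis genes, many made outside hepatocytes, 5 were lower and 14 higher, with a median log2 fold change of 0.41. The lowest p belonged to Anxa2, a plasminogen receptor (3.69 ± 0.31), Plaur, the urokinase receptor (2.67 ± 0.25), F13a1, the catalytic subunit that F13b carries in plasma and that macrophages make (3.77 ± 0.44), and Plat, the tissue plasminogen activator (3.73 ± 0.52). F13a1 thus rose while F13b fell. Of 31 other complement genes 5 were lower and 11 higher. The higher genes included Itgax, a subunit of a receptor for cleaved C3 on myeloid cells (4.30 ± 0.26). Itgb2 (2.04 ± 0.24) and C3ar1, the C3a receptor (1.80 ± 0.23), were also higher, and Susd4, a complement inhibitor, was lower (−2.58 ± 0.26).

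In C18:1-leucine against C18:1 livers Itgax fell by 1.45 ± 0.22, Anxa2 by 1.55 ± 0.30 and Plaur by 1.22 ± 0.24 on the log2 scale. In that comparison 6 of the 30 other coagulation genes were lower and 3 higher, and 9 of the 31 other complement genes were lower and 5 higher. Of all tested genes 8.89% were lower and 7.34% higher there.

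Regulators of these genes were also read from such a list. In MASH against chow 7 of 23 were lower and 2 higher, where 15.1% of all tested genes were lower and 20.4% higher. Hnf4a, which encodes HNF4 alpha, fell from 1209 ± 93.0 CPM (SD, n = 4) to 732 ± 175 CPM (n = 3), a log2 fold change of −0.72 ± 0.17 (adjusted p = 0.00534), and Foxa3 fell by 0.73 ± 0.17. Nfkb1 rose by 0.43 ± 0.08, and Tnf rose by 3.05 ± 0.66 from a level of 0.0497 ± 0.0641 CPM. Hnf4a stood at 708 CPM in C18:1-leucine livers, a log2 fold change of −0.77 ± 0.17 from chow (adjusted p = 0.0107). Of 19 acute phase genes none was lower and 3 were higher in MASH livers (Saa3, Lcn2 and Saa2), a share of higher genes not above that of all tested genes. The part of these regulators in the member results was not tested.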

How the data were processed

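Liver RNA of 14 libraries was used. The authors deposited a table of expected counts per gene, in which 5.09% to 5.76% of each library's values were fractional, and these were rounded. Per the submitters' processing notes, HTSeq, DESeq2 1.42.1 and GRCm38 were used, with no roles named. The labels' protocols name RNeasy extraction and NEBNext Ultra II library kits. Comparison tables deposited by the authors, known only by letters, were not used.

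Genes with a count of at least 10 in enough libraries for the smallest group of 3 and a total of at least 15 were kept (15674). One fit over all libraries used edgeR 4.0.16 and R 4.3.3 (TMM, robust quasi-likelihood F test, two-sided, Benjamini-Hochberg over tested genes, threshold 0.05), a step tested on simulated data. Log2 levels used CPM with 0.5 added. Exon lengths and positions came from GENCODE M21 (GRCm38). Pairs of libraries within groups differed by a chi-square per gene of 25.0 to 168, far above counting error. The members and gene lists were chosen with earlier results of these data known. All members could be named; of the other coagulation, other complement, regulator and acute phase lists, the 4 genes with the smallest p in MASH against chow and 2 in the other comparisons could be named, and marker lists are given by counts and sums. One gene that this rule would name is not reported here. Alternatives were relative log expression scaling, no low-count filter, DESeq2 1.42.0, voom of limma 3.58.1, fitting the compared groups alone, blocking on replicate number, leaving out each library in turn, groups from treatment tags, omission of both libraries whose labels disagree, a 1.5-fold minimum and, chosen after seeing the data, both libraries rich in pancreatic transcripts left out.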

Additional observations from a re-analysis of the deposited data

How the results depend on the processing

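No called member reversed under any alternative run. Members called in MASH against chow (20) were 9 with a 1.5-fold minimum, 11 without both libraries rich in pancreatic transcripts and 10 to 22 with 1 library left out; in C18:1 against chow (25) they were 15 with a 1.5-fold minimum, 9 with groups from the tags (8 lower and 1 higher) and 19 to 29. In C18:1-leucine against chow (1) they were 3 with DESeq2, 3 without both libraries with disagreeing labels, 0 with groups from the tags, with a 1.5-fold minimum or without the libraries rich in pancreatic transcripts, and 0 to 3 with 1 library left out. In C18:1-leucine against MASH (0) they were 3 with DESeq2 and 0 to 1, and in C18:1 against MASH 0 throughout. In C18:1-leucine against C18:1 (10) they were 1 with the compared groups alone, 3 with a 1.5-fold minimum, 0 with groups from the tags, 0 without both libraries with disagreeing labels, 1 without the libraries rich in pancreatic transcripts and 1 to 16. DESeq2 lost no called member and added 4 in MASH against chow, 3 in C18:1 against chow and 2 in C18:1-leucine against C18:1. Over all tested genes it called 6283, 8637 and 3328 there, where the main fit called 5563, 8252 and 2544. In C18:1-leucine against chow and MASH it called 3229 and 894, where the main fit called 2276 and 11. The compared groups alone added 3 members in MASH against chow. Shares of all tested genes are not given for the other runs. The cause was not tested. The 1.5-fold minimum and left-out libraries also leave fewer genes or libraries by construction.

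With the replicate number as a block the calls were 19 in MASH against chow, 25 in C18:1 against chow, 2 in C18:1-leucine against chow, 0 in both comparisons of a compound with MASH and 9 in C18:1-leucine against C18:1. Same-numbered libraries had correlations of deviations from −0.30 to 0.40. Libraries with different numbers were not compared in this way, so whether the numbers pair the libraries was not settled. The lowest member count was 905, where the filter asked for at least 10. The part of depth in the member levels was not tested. Dixon's test flagged no library in 78 combinations of a member and a group of 4, with 3.9 expected by chance at 1 in 20. The MASH and C18:1-leucine groups, with fewer libraries, were not tested for outliers.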
